A study of Mus musculus with 16 samples.

Results

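Of the 19373 genes in the table from mouse gonadal white adipose tissue (gWAT), 9 genes of mitochondrial and peroxisomal fatty acid oxidation are described here. They were chosen by symbol and are Cpt1a, Cpt2, Acadvl, Acadl, Acadm, Hadha, Hadhb, Phyh and Ehhadh, and each has a row. RNA was sequenced from gWAT of 16 male mice on the C57Bl6/J background in 4 groups of 4. The control groups were Mboat7 flox/flox mice, whose Mboat7 alleles carry loxP sites, which ate chow or a high fat diet (HFD) over 20 weeks. The other groups were Mboat7 ASKO mice, which carry the same floxed alleles and a Cre recombinase driven by the adiponectin promoter, fed the same diets for the same time. The Cre acts in adipocytes, so other cells of the fat pad keep the gene. Exact ages are not given in the sources used here, and the mice of a group were separate animals. The design asks whether the diet changed each gene within a genotype, and whether adipocyte deletion of Mboat7 changed it within a diet.

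Fatty acids enter mitochondria as carnitine esters. CPT1 on the outer membrane makes the ester and CPT2 on the inner membrane turns it back into an acyl-CoA, which is then shortened by cycles of dehydrogenation, hydration, another dehydrogenation and thiolysis. The acyl-CoA dehydrogenases divide the substrates by chain length, and the trifunctional protein, built from the products of Hadha and Hadhb, carries out the later steps for long chains. Peroxisomes shorten very long and branched chains and pass the products on to mitochondria. White adipocytes store far more fatty acid than they burn, and their oxidative genes are known to be low beside those of brown fat, muscle or liver.

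The values were fragments scaled to transcript length and to the fragments mapped in the library (FPKM), so levels can be compared between genes of unlike length. The libraries appeared shallow. From the steps between the low values, 1 library was estimated to hold 232000 to 407000 fragments assigned to genes. In a mouse 48.7% to 80.3% of the low values stood no more than 0.2 from a whole fragment, where an even spread would give 40% at a step fixed beforehand. The step was chosen in each mouse to fit these same values best, so an even spread could also exceed 40%. Steps were tried within a set range, which bounds the estimate. The 10 highest genes took 32.6% to 55.2% of the FPKM sum of a mouse, and 2 libraries stood apart by this share, control on HFD replicate 1 at 55.2% and ASKO on HFD replicate 3 at 54.2%. Mboat7 itself was near the limit of detection and was listed at 0 in 6 of 16 mice, so it checks the genotype labels poorly. Mboat7 was at 2.42, 4.33, 0.902 and 4.99 FPKM in control mice on chow and at 0, 1.39, 0 and 2.89 FPKM in ASKO mice on chow. On HFD, Mboat7 was at 0, 0, 2.15 and 1.61 FPKM in controls and at 1.14, 0, 2.60 and 0 FPKM in ASKO mice, and the groups overlapped on both diets. Adipocyte markers were abundant in all mice, with Fabp4 the highest of the 10 in every group.

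The levels of the 9 genes ran from abundant to barely detected. In control mice on chow, Acadm was highest at 194.7 ± 41.5 FPKM (mean ± SD, n = 4) and made up 49.3% of the summed FPKM of the 9 genes. Phyh followed at 77.9 ± 15.3 FPKM, Acadl at 64.7 ± 8.81 FPKM and Acadvl at 23.4 ± 8.47 FPKM. Hadha at 9.90 ± 2.26 FPKM, Cpt1a at 8.41 ± 4.52 FPKM, Ehhadh at 5.68 ± 3.48 FPKM and Cpt2 at 5.68 ± 2.03 FPKM came next, and Hadhb was the lowest. All 4 mice had Acadm above every value of Phyh, Acadl above every value of Acadvl, and Acadvl above every value of Hadha. Phyh and Acadl overlapped in this group, as did each neighbouring pair from Hadha down to Cpt2. The order from Phyh down differed with diet: in control mice on HFD, Phyh was at 21.0 ± 6.34 FPKM, below all values of Acadl (56.4 ± 12.6 FPKM) and overlapping Acadvl and Cpt1a. Phyh made up 19.8% ± 2.80 of the summed FPKM in control mice on chow and 7.80% ± 2.36 in control mice on HFD (SD, n = 4).

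**Figure D1:**
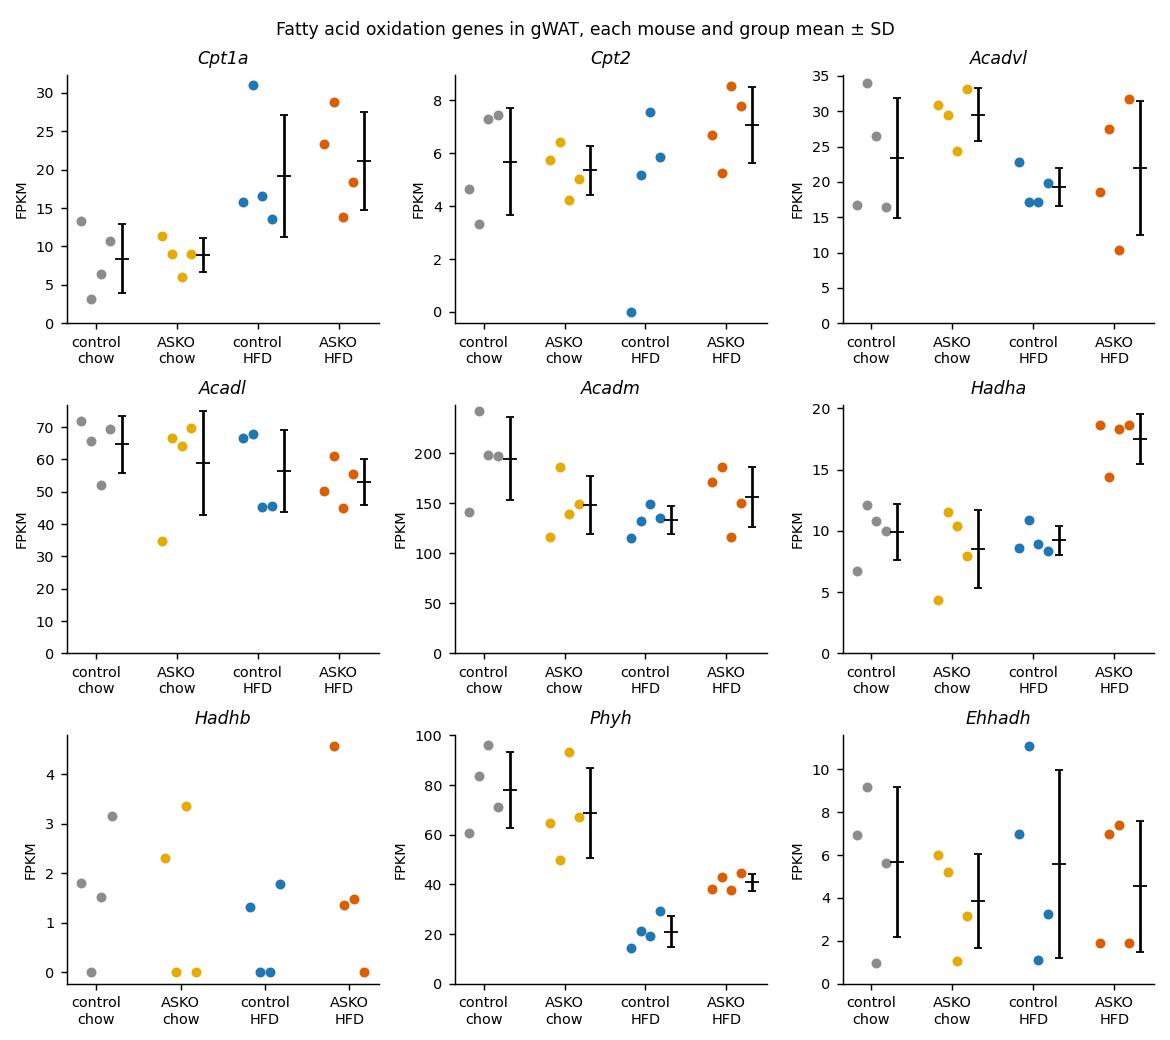
Each panel plots the FPKM of 1 gene from 0 upwards, with a point for each of the 4 mice in each of the 4 groups of genotype and diet and a bar beside them for the mean ± SD, left out where a mouse is listed at 0. Phyh sits between 14.2 and 29.4 FPKM in controls on HFD and between 60.8 and 96.1 FPKM in controls on chow, Cpt1a is higher on HFD in both genotypes, and Hadha is highest in ASKO mice on HFD.

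The diet changed 2 of the 9 genes when the genotypes were averaged: Phyh fell and Cpt1a rose. Within control mice Phyh alone passed the test, and within ASKO mice none of the 9 did. Fewer cells of a type and less RNA per cell cannot be told apart in tissue RNA. A gene passed where the limma adjusted p was under 0.05 and the log2 fold change, on the log2(FPKM + 1) scale, exceeded 0.5 in either direction. By this rule 2.91% of the 13148 tested genes passed for diet in control mice, 3.43% for diet in ASKO mice and 7.53% for diet averaged over genotypes, and all 9 genes were among those tested. The ranges of the chow and HFD mice did not overlap for 2 of the 9 genes in controls (8.34% of all tested genes), for 3 of the 9 in ASKO mice (9.60%) and for 2 of the 9 over both genotypes (2.22%). The median log2 fold change of the 9 was -0.21 in control mice, 0.15 in ASKO mice and -0.13 averaged over genotypes, beside 0.00, 0.03 and 0.01 over all tested genes. In control mice 3 of the 9 had an unadjusted limma p under 0.05, namely Phyh, Cpt1a and Acadm (14.2% of all tested genes), and in ASKO mice 3 did, namely Hadha, Cpt1a and Phyh (15.0%).

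Phyh encodes phytanoyl-CoA hydroxylase, the peroxisomal enzyme that begins alpha oxidation of phytanic acid, a branched fatty acid from food that beta oxidation cannot attack. Its locus is chr2:4919019-4938730 on the plus strand of mm10. The 4 controls on chow had Phyh at 60.8, 83.6, 96.1 and 71.0 FPKM, and the 4 controls on HFD had it at 14.2, 21.1, 19.2 and 29.4 FPKM. The highest HFD mouse was below the lowest chow mouse. The log2 fold change was -1.87 with a standard error of 0.28 (limma adjusted p = 0.00102), which is 0.274 of the chow level. In ASKO mice Phyh was at 64.7, 49.9, 93.4 and 67.2 FPKM on chow and at 38.2, 42.9, 37.6 and 44.6 FPKM on HFD. These groups did not overlap either, but the smaller difference of -0.71 (standard error 0.28) missed the threshold (limma adjusted p = 0.222). Averaged over genotypes Phyh fell by 1.29 on the log2 scale (standard error 0.20, limma adjusted p = 4.38e-04). Phyh kept its place past the threshold in control mice and over both genotypes when any mouse was left out, with log2 fold changes of -2.04 to -1.70 and -1.37 to -1.21. The Phyh values rest on an estimated 8 to 47 fragments per mouse.

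The stretch before the Phyh start is shown because Phyh had the largest diet difference of the 9 in control mice and averaged over genotypes. It comes from RefSeq (GRCm38.p6, the mm10 build), covers chr2:4918746-4918995 on the plus strand, is written 5′ to 3′, and holds no base of an annotated exon. Capitals would mark a match to any motif searched on either strand; this window has none.

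Phyh: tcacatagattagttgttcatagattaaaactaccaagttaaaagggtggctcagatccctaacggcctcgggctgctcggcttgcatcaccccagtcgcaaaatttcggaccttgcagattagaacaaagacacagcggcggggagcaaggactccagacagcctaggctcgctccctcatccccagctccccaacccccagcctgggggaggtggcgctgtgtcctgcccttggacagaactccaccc

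Cpt1a encodes the liver type of carnitine palmitoyltransferase 1, the malonyl-CoA sensitive enzyme that controls entry of long chains into mitochondria. Its locus spans chr19:3322334-3385733 on the plus strand in GENCODE M21. Cpt1a was at 13.3, 3.13, 6.44 and 10.7 FPKM in control mice on chow and at 15.8, 31.0, 16.6 and 13.6 FPKM in controls on HFD. In ASKO mice it was at 11.4, 9.06, 6.04 and 9.07 FPKM on chow and at 23.4, 28.8, 13.9 and 18.4 FPKM on HFD. All 8 HFD mice were above all 8 chow mice, by a narrow margin of 13.6 against 13.3 FPKM. Cpt1a rose by 1.16 on the log2 scale averaged over genotypes (standard error 0.29, limma adjusted p = 0.0208), or 2.24-fold. Within a genotype the size was alike, 1.18 in controls and 1.14 in ASKO mice (standard error 0.42 each), and neither passed (limma adjusted p = 0.171 and 0.174). The averaged result passed with any mouse left out, at limma adjusted p from 0.0134 to 0.0489. It missed the threshold without control on HFD replicate 1 and ASKO on HFD replicate 3, the libraries with most of their FPKM sum in 10 genes, at a log2 fold change of 1.06 (limma adjusted p = 0.0688), a setting chosen after seeing the data. Cpt1a rests on an estimated 4 to 50 fragments per mouse.

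The stretch before the RefSeq start of Cpt1a is set beside that of Phyh because Phyh and Cpt1a were the members that passed, in opposite directions. It covers chr19:3323051-3323284 on the plus strand (RefSeq, GRCm38.p6) and stops before the first annotated exon of the window. The GENCODE M21 gene starts earlier, at 3322334, so this stretch lies inside the annotated gene and does not precede every annotated start. Capitals mark AGGTCA, the hexamer bound by many nuclear receptors, and GGGCGG, the GC box, here each on the reverse strand and so read as TGACCT and CCGCCC.

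Cpt1a: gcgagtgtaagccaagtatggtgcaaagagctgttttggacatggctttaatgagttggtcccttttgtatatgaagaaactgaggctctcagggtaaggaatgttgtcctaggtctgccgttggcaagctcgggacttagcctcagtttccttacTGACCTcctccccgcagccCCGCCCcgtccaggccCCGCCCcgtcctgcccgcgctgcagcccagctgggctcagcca

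Upstream stretches of 250 bases were searched on both strands for 6 motifs in all 9 genes and in 32851 RefSeq gene starts. AGGTCA stood in 3 of the 9, Acadm, Acadvl and Cpt1a, and in 14.0% of all starts. GGGCGG stood in 6 of the 9, Acadl, Cpt1a, Cpt2, Ehhadh, Hadha and Hadhb, and in 32.7% of all starts. The Hadha and Hadhb windows share 228 bases, so a GC box there counts for both genes, and 182 and 165 of their bases are exonic. CCAAT stood in 2 of the 9, Cpt1a and Ehhadh, and in 33.8%; in Cpt1a it runs into the exon that is not printed. The direct repeat AGGTCANAGGTCA (0.0335% of all starts), which contains AGGTCA, TCAAGGTCA (0.387%), which also contains it, and CACGTG (6.02%) stood in none of the 9. A match describes letters only.

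The other members lie at chr4:107903981-107923610 (Cpt2), chr11:70010183-70015411 (Acadvl), chr1:66830839-66863277 (Acadl), chr3:153922357-153944632 (Acadm) and chr16:21761287-21787807 (Ehhadh), each on the minus strand in GENCODE M21. Cpt2, the inner membrane partner of CPT1, did not pass in any comparison. It was at 4.64, 3.33, 7.28 and 7.46 FPKM in controls on chow, at 5.73, 6.41, 4.25 and 5.04 FPKM in ASKO mice on chow, at 6.71, 5.24, 8.55 and 7.78 FPKM in ASKO mice on HFD, and at 5.19, 7.56 and 5.85 FPKM in 3 controls on HFD. The remaining control on HFD, replicate 0, was listed at 0. The diet difference of Cpt2 averaged over genotypes was -0.11, with a 95% interval of -0.95 to 0.72 on the log2 scale. Without control on HFD replicate 0 it was 0.24. The Cpt2 values rest on an estimated 0 to 7 fragments per mouse.

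The 3 acyl-CoA dehydrogenases among the 9 members, which act on straight chains, did not pass for diet. Acadm, which acts on medium chains, was at 140.9, 242.2, 198.5 and 197.3 FPKM in controls on chow and at 114.9, 132.6, 149.1 and 135.8 FPKM in controls on HFD. The lowest chow mouse lay inside the HFD range, and the difference was -0.53 (standard error 0.24, limma adjusted p = 0.322). In ASKO mice Acadm was at 116.4, 186.1, 139.8 and 149.6 FPKM on chow and at 171.1, 186.5, 116.8 and 150.0 FPKM on HFD, with a difference of 0.08 (standard error 0.24). Acadm had the deepest values of the 9, an estimated 55 to 153 fragments per mouse. Of the 50-base stretches of its longest coding transcript, 4.10% also occur in Gm5131. Acadl, which acts on long chains, lay between 44.9 and 71.8 FPKM in all mice but ASKO on chow replicate 0, which was at 34.9 FPKM. Its diet difference averaged over genotypes was -0.16, with a 95% interval of -0.57 to 0.25. Acadvl, the very long chain enzyme of the inner membrane, was at 16.4 to 34.0 FPKM in controls on chow, 17.1 to 22.8 FPKM in controls on HFD, 24.4 to 33.1 FPKM in ASKO mice on chow and 10.3 to 31.7 FPKM in ASKO mice on HFD. Its averaged diet difference was -0.36 (95% interval -0.89 to 0.17). Of the Acadvl exon bases, 42.9% overlap Dvl2 on the opposite strand, and whether counting used strand is not stated, so Acadvl reads may be split with Dvl2. Dvl2 was at 58.0 to 204 FPKM over all mice, above Acadvl in every group mean.

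**Figure D2:**
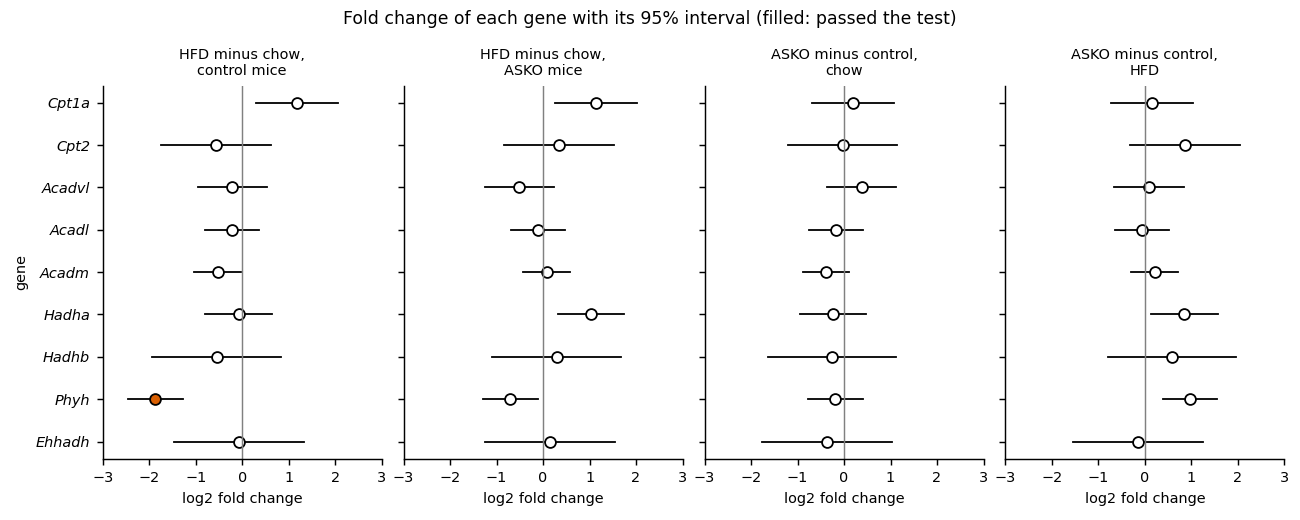
Points give the log2 fold change of each of the 9 genes, on the log2(FPKM + 1) scale, in 4 comparisons of 4 mice against 4, and lines give 95% intervals from limma. The filled point, Phyh in control mice at -1.87, is the only point drawn that passed. The lines of Phyh and Cpt1a for diet in both genotypes, of Acadm for diet in controls, of Hadha for diet in ASKO mice, and of Phyh and Hadha for genotype on HFD also lie off 0.

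Hadha and Hadhb encode the alpha and beta subunits of the trifunctional protein. They stand head to head on chromosome 5, with Hadha on the minus strand at chr5:30118304-30155162 and Hadhb on the plus strand at chr5:30155248-30184593. The 85 bases between their annotated starts are shown because the genes share them, read on the Hadhb strand (chr5:30155163-30155247, GRCm38.p6), with the GC box GGGCGG in capitals.

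Hadha-Hadhb: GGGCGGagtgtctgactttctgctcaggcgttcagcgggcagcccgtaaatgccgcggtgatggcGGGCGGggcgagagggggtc

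Hadha was at 6.76, 12.1, 10.8 and 10 FPKM in controls on chow, at 4.34, 11.5, 10.4 and 7.96 FPKM in ASKO mice on chow and at 8.60, 10.9, 8.96 and 8.39 FPKM in controls on HFD. In ASKO mice on HFD it was at 18.6, 14.4, 18.3 and 18.6 FPKM, above every other mouse. The diet difference was -0.07 in controls (standard error 0.34) and 1.02 in ASKO mice (standard error 0.34, limma adjusted p = 0.126), so Hadha did not pass in either genotype. The values stand on an estimated 4 to 27 fragments per mouse. Hadhb was barely detected, at an estimated 0 to 3 fragments per mouse, and was listed at 0 in 6 of 16 mice. It was at 1.81, 0, 1.52 and 3.16 FPKM in controls on chow, at 2.31, 0, 3.35 and 0 FPKM in ASKO mice on chow, at 1.32, 0, 0 and 1.78 FPKM in controls on HFD and at 4.56, 1.35, 1.48 and 0 FPKM in ASKO mice on HFD. The groups overlapped in every comparison. Of the 50-base stretches of its longest coding transcript, 62.4% also stand in the pseudogenes Gm13910 and Gm9108, so the Hadhb level is uncertain. Gm13910 was listed at 4.43 to 35.4 FPKM, above Hadhb in every group mean, and its own changes did not pass either.

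Ehhadh encodes the peroxisomal bifunctional enzyme that hydrates and dehydrogenates enoyl-CoAs. It ranged from 0.948 to 9.20 FPKM in controls on chow, from 1.06 to 5.99 FPKM in ASKO mice on chow, from 1.11 to 11.1 FPKM in controls on HFD and from 1.91 to 7.40 FPKM in ASKO mice on HFD. The groups overlapped almost completely. The averaged diet difference was 0.04, with a 95% interval of -0.95 to 1.03, at an estimated 1 to 10 fragments per mouse.

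Adipocyte deletion of Mboat7 changed none of the 9 genes past the threshold, on chow, on HFD or averaged over diets. Over all tested genes, 0.00761% passed on chow, 0.00761% on HFD and 0% averaged over diets. At an unadjusted limma p under 0.05, the members numbered 0 on chow, 2 on HFD and 0 averaged, beside 4.80%, 5.15% and 3.76% of all tested genes. On HFD the range of ASKO mice lay above that of control mice for 2 of the 9, Phyh and Hadha, where 3.38% of all tested genes had ranges apart in either direction; on chow no member did (2.19%). Phyh was 1.96-fold higher in ASKO mice on HFD, at 37.6 to 44.6 FPKM against 14.2 to 29.4 FPKM (log2 0.97, standard error 0.28, limma adjusted p = 0.809). Hadha was 1.81-fold higher, at 14.4 to 18.6 FPKM against 8.39 to 10.9 FPKM (log2 0.85, standard error 0.34, limma adjusted p = 0.901). On chow the Phyh difference was -0.19 (95% interval -0.78 to 0.40) and the Hadha difference -0.24 (95% interval -0.95 to 0.47). Whether the diet effect differed between the genotypes was tested directly by the interaction. No member passed (0% of all tested genes did), with 2 of the 9 at an unadjusted p under 0.05 in limma, beside 6.30% of all tested genes: Phyh at 1.16 (standard error 0.40, limma adjusted p = 0.655) and Hadha at 1.09 (standard error 0.48, limma adjusted p = 0.757). A difference in the diet effect between genotypes was thus not shown for either gene. The other 7 members had genotype differences on HFD between -0.15 (Ehhadh) and 0.87 (Cpt2), with intervals that held 0. The Cpt2 value was 0.16 without control on HFD replicate 0, the mouse listed at 0, and 1.67 with a pseudocount of 0.1.

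The other genes of the pathway, with its regulators and the ketone body enzymes, were taken from lists of 72 genes. Of these, 70 had rows and 62 were tested. With diet averaged over genotypes, 8 of the 62 fell and 0 rose, beside 3.04% and 4.49% of all tested genes, and the median of the 62 was -0.26. In control mice 3 fell and 1 rose (median -0.51), beside 1.10% and 1.81% of all tested genes, and in ASKO mice 3 fell and 0 rose (median -0.12), beside 1.30% and 2.13%. None passed for genotype on HFD, where 3 of the 62 had an unadjusted limma p under 0.05, a share near the 5.15% of all tested genes. The lists were chosen with earlier results of these data known.

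Among the other acyl-CoA dehydrogenases and electron transfer genes, 3 of 12 fell with diet averaged over genotypes (median -0.35), beside 3.04% of all tested genes. Acadsb, the short and branched chain enzyme of isoleucine breakdown, was at 18.4 to 24.4 FPKM in controls on chow and at 4.56 to 9.74 FPKM in controls on HFD. Acadsb passed within both genotypes, at -1.46 in controls and -1.24 in ASKO mice (limma adjusted p = 0.0121 and 0.0298). Ivd, isovaleryl-CoA dehydrogenase of leucine breakdown, fell by 1.70 averaged over genotypes (limma adjusted p = 0.00375). Acad11 fell by 1.02 (limma adjusted p = 0.0474). Of the hydratase, dehydrogenase and thiolase genes, 1 of 5 fell: Echs1, the short chain enoyl-CoA hydratase, by 1.09 (limma adjusted p = 0.0268).

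Of 10 auxiliary genes for unsaturated and odd-chain acids, Pccb, a subunit of propionyl-CoA carboxylase, fell by 1.16 averaged over genotypes (limma adjusted p = 0.00197). Mcee, methylmalonyl-CoA epimerase, passed in control mice, at 3.08 (limma adjusted p = 0.0121), with chow values of 0, 0, 3.99 and 0 FPKM against 7.16, 4.43, 17.4 and 30.6 FPKM on HFD. In ASKO mice Mcee was at 9.48 to 32.3 FPKM on chow and at 7.63 to 17.4 FPKM on HFD, a difference of -0.43 (limma adjusted p = 0.827). It did not pass for averaged diet (limma adjusted p = 0.0922) or for genotype on chow (3.56, limma adjusted p = 0.124). Its interaction with genotype did not pass (-3.51, standard error 0.90, limma adjusted p = 0.655). Of 19 tested genes of the other peroxisomal list, 2 fell averaged over genotypes, beside 3.04% of all tested genes: Scp2, a sterol carrier and thiolase, by 0.96 (limma adjusted p = 0.00227) and Abcd2, a peroxisomal importer of very long acyl-CoAs, by 0.85 (limma adjusted p = 0.00492). Scp2 passed within ASKO mice (limma adjusted p = 0.0281) but not within controls (limma adjusted p = 0.0781). Abcd2 passed within neither controls nor ASKO mice (limma adjusted p = 0.068 and 0.0885). Scp2 was far above Phyh, at 372 to 510 FPKM in controls on chow and 176 to 311 FPKM in controls on HFD. In ASKO mice Scp2 was at 376 to 662 FPKM on chow and at 182 to 299 FPKM on HFD.

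Among the regulators, Acaca, an acetyl-CoA carboxylase that makes malonyl-CoA, an inhibitor of CPT1, fell by 2.61 in controls (limma adjusted p = 0.00425) and also passed averaged over genotypes (limma adjusted p = 9.14e-04). Acaca was at 9.26 to 23.0 FPKM in controls on chow and at 0.328 to 3.23 FPKM in controls on HFD. In ASKO mice Acaca was at 5.23 to 16.3 FPKM on chow and at 2.03 to 4.54 FPKM on HFD. The difference there, -1.38, did not pass (limma adjusted p = 0.138). Ppara, Ppard, Ppargc1a, Ppargc1b and Acacb did not reach 1 FPKM in 4 mice and were not tested. None of 7 tested genes of the carnitine shuttle and activation list and none of 2 ketone body genes passed for averaged diet, with 2 and 0 at an unadjusted limma p under 0.05 (19.4% of all tested genes). Acsl1, the main acyl-CoA synthetase of adipocytes, was at 125 to 169 FPKM in controls on chow and at 117 to 174 FPKM in controls on HFD, and Oxct1, which uses ketone bodies, at 59.4 to 99.7 FPKM and 41.6 to 63.6 FPKM.

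**Figure D3:**
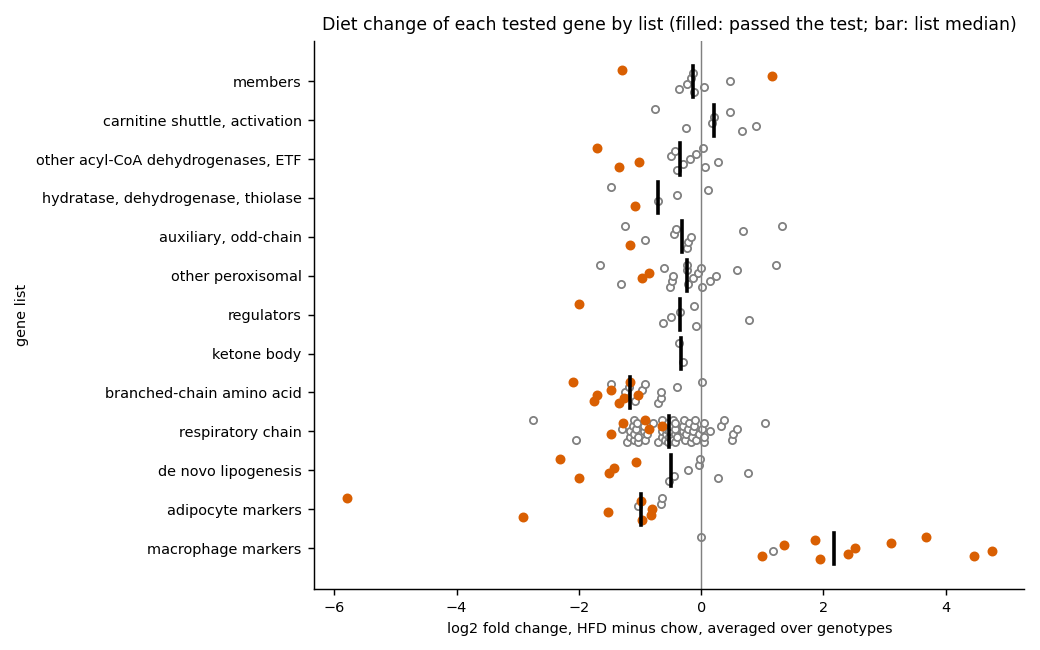
Each point is the log2 fold change of 1 tested gene for HFD minus chow averaged over genotypes, grouped by gene list on the vertical axis, filled where the gene passed, with a bar at the list median. The 9 members have a median of -0.13 with Phyh and Cpt1a filled on opposite sides, while the branched-chain amino acid genes have a median of -1.16 and the macrophage markers 2.18.

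Other metabolic lists also held genes that fell on HFD. Averaged over genotypes, 8 of 19 genes of branched-chain amino acid catabolism fell (median -1.16), 5 of 68 respiratory chain subunits fell (Ndufa10, Ndufb8, Ndufv1, Ndufv2 and Sdha; median -0.52) and 5 of 12 tested genes of de novo lipogenesis fell (Acly, Acaca, Fasn, Scd1 and Thrsp; median -0.49), and none of the 3 lists had a gene that rose. Over all tested genes 3.04% fell, 4.49% rose and 7.53% passed in either direction. Of the 68 respiratory chain subunits, 63 did not pass. The names of these genes, Acaca aside, were chosen after their values were seen. Of the 8 genes of the other oxidation lists that fell, 3 (Acadsb, Ivd and Pccb) are also in the branched-chain list, and no member is. Acaca, also among the 8, is a regulator and is in the de novo lipogenesis list too.

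Cell type markers moved with diet too. Of 10 adipocyte markers, 7 fell averaged over genotypes (median -0.98), and of 12 macrophage markers, 10 rose (median 2.18). Over all tested genes 3.04% fell and 4.49% rose. The summed adipocyte markers ran from 10246 to 17799 FPKM in controls on chow, from 9064 to 25777 FPKM in ASKO mice on chow, from 4207 to 9850 FPKM in controls on HFD and from 6074 to 6748 FPKM in ASKO mice on HFD. The summed macrophage markers ran from 249.5 to 305.1 FPKM, from 226.7 to 292.8 FPKM, from 670.2 to 1097 FPKM and from 882.8 to 1361 FPKM in the same groups. The averaged diet changes of the 10 adipocyte markers ran from -5.80 (Cfd) to -0.64 (Cidec), both named after their values were seen. The adipocyte sum mixes these unlike changes and leans on the most abundant genes. No adipocyte marker was at 0 in all mice of a group, and of the macrophage markers Fcgr1 was, in controls on chow. Between the diets Phyh fell alongside the adipocyte sum and Cpt1a rose alongside the macrophage sum, but mice within a group varied. Among controls on HFD Phyh was highest, at 29.4 FPKM, where the adipocyte sum was lowest. Among ASKO mice on chow Phyh was highest, at 93.4 FPKM, where that sum was highest. Plin1, of the same list, was lowest in that mouse, at 77.8 FPKM against up to 141.3 FPKM in the group. Adipoq was at 961.3 FPKM there, inside the group's range of 678.5 to 1379.5 FPKM. Plin1 and Adipoq are named after their values were seen. The part of the marker change in the Phyh and Cpt1a results was not tested. On HFD the sums of both marker lists overlapped between the genotypes. The mean macrophage sum was 1200.7 FPKM in ASKO mice and 894.5 FPKM in controls. For genotype on HFD, 4 of 10 adipocyte markers were higher in ASKO mice (median -0.08) and 11 of 12 macrophage markers were (median 0.44, 2 of them with ranges apart), none of them passing. Over all tested genes the median was 0.02, and 3.38% had ranges apart in either direction. The part of these markers in the Phyh and Hadha differences was not tested.

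**Figure D4:**
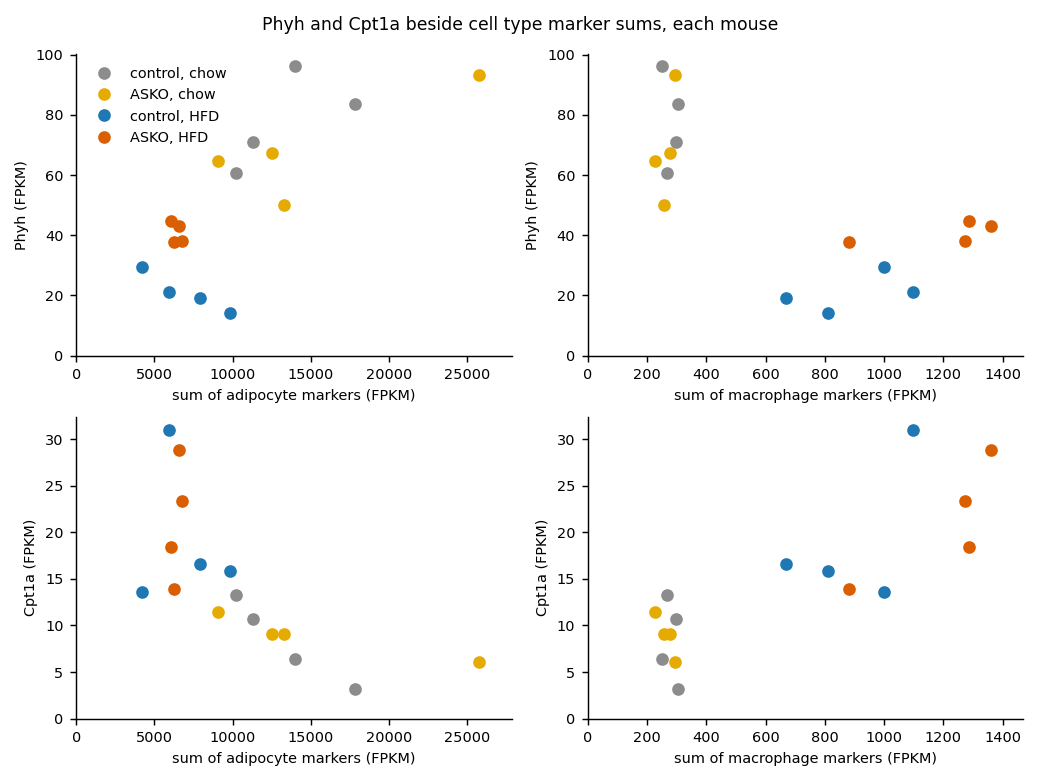
Points are mice, coloured by group, with Phyh or Cpt1a in FPKM on the vertical axis and the summed FPKM of adipocyte or macrophage markers on the horizontal axis. The 8 chow mice have macrophage sums of at most 305.1 FPKM and the 8 HFD mice of at least 670.2 FPKM. On HFD the ASKO mice lie above the control mice in Phyh, and the marker sums of these groups overlap.

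Markers of oxidative cell types were low. Ucp1, the uncoupling protein of brown fat, was listed at 0 in 15 of 16 mice and at 1.94 FPKM in ASKO on HFD replicate 3. The 8 brown or beige markers summed to at most 82.7 FPKM in any mouse, with Cox8b the highest of them, and the 5 skeletal muscle markers with a row to at most 31.7 FPKM. For averaged diet 4.49% of all tested genes rose and 3.04% fell. Beside this, 1 of 4 tested brown or beige markers rose (Otop1), and no muscle marker passed. Mesothelial markers summed to 1.65 to 39.8 FPKM with 1 of 7 falling (Lrrn4), and fibroblast progenitor markers to 261.7 to 582.6 FPKM with 1 of 6 rising (Col3a1). Endothelial markers summed to 21.7 to 69.1 FPKM and lymphocyte markers to 0 to 12.3 FPKM, with none passing. Otop1, Lrrn4 and Col3a1 are named after their values were seen. Epididymal epithelium markers were not analysed here.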

How the data were processed

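RNA from gWAT of 16 mice, 4 in each group of genotype and diet, was sequenced by the authors from a directional poly(A) library kit. The authors trimmed reads with TrimGalore, aligned them with STAR to mm10 guided by GENCODE, and made FPKM values with Cufflinks, and the deposited table holds 1 FPKM column per mouse. The submitters' processing notes also name Cuffdiff. The GENCODE release, the Cufflinks normalization setting and the use of strand are not given in the sources used here. FPKM are not counts and hold no error per value, and reads of overlapping or near-identical genes can be split between them.

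FPKM values were taken as log2(FPKM + 1), which understates changes of low genes. Genes at 1 FPKM or more in at least 4 mice (13148) were fitted with limma 3.58.1 in R 4.3.3 on 4 group means with an intensity trend, and p-values were adjusted by Benjamini-Hochberg over all tested genes within each of 7 contrasts. Group ranges are called apart where every value of a group lies above every value of the other. The fit was tested on simulated data. The p-values rest on the spread between the libraries of different mice, which holds counting noise as well as differences between animals. Gene models were matched to GENCODE M21 (99.6% of identifiers), and upstream sequences came from RefSeq on GRCm38.p6. Depth was estimated from the steps of 1475 single-transcript coding genes, as fragments per library, and intervals do not cover this. No pair among 120 pairs of mice had identical values.

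The members and lists were chosen with earlier results of these data known. All 9 members are given with their values. Of the other oxidation lists, genes that passed in any contrast are named, at most 6 per list by size of the averaged diet change, and otherwise the 2 highest. A gene of these lists is not reported here. Of marker and comparison lists the rule gave counts, medians, ranges and a highest gene or one at 0, and the text says where other genes of them are named. Alternatives were another pseudocount (0.1), no filter, a filter of 5 FPKM, 3 other scalings, fits on the compared groups alone, without trend or with robust estimation, no limit on fold change, a replicate block and leaving out each mouse.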

Additional observations from a re-analysis of the deposited data

Results flagged for a closer look

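In 88 groups of 4 mice, the highest or lowest FPKM was compared with the rest of its group for the 9 members and the other oxidation genes named. In 6 groups that mouse lay far from the other 3 by Dixon's test, where chance gives about 4.4. Acadl was at 34.9 FPKM in ASKO on chow replicate 0, against 64.0 to 69.8 FPKM in the other 3 mice. Hadha was at 14.4 FPKM in ASKO on HFD replicate 1, against 18.3 to 18.6 FPKM, and still above every mouse of the other groups. Acsl5 was at 48.3 FPKM in the same mouse, against 21.3 to 23.7 FPKM. Echs1 was at 18.5 FPKM in ASKO on HFD replicate 2, against 57.4 to 64.3 FPKM. Mcee was at 3.99 FPKM in control on chow replicate 2, with the other 3 mice listed at 0. Scp2 was at 662.3 FPKM in ASKO on chow replicate 2, against 376.0 to 412.5 FPKM.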

How the results depend on the processing

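The count of members that passed was the same as reported in each of the 7 contrasts under every alternative listed above for the fit, and 2 for diet averaged over genotypes, 1 for diet in control mice and 0 elsewhere with any mouse left out. Same-numbered mice of different groups had correlations of their deviations from -0.19 to 0.15 over 24 pairs, of which 1 was over 0.1, and the numbers were not taken to pair mice. As a hint from the data, not the design, 8 of 16 mice correlated best with their own number, where an even spread would give 4. The replicate block left these counts at 2, 1 and 0 and changed no member's call. Without both libraries with most of their FPKM sum in 10 genes (control on HFD replicate 1 and ASKO on HFD replicate 3), chosen after seeing the data, the count for averaged diet was 1, since Cpt1a missed the threshold at 1.06 (limma adjusted p = 0.0688). Over all tested genes, fits on the compared groups alone called 255 genes against 383 for diet in control mice and 265 against 451 in ASKO mice; leaving out ASKO on HFD replicate 0 gave 264 in ASKO mice, and leaving out both libraries gave 234 in control mice. Small differences of members that did not pass changed sign, and the cause was not tested. Under quantile normalization Acadl for diet in ASKO mice was 0.03 and Ehhadh for averaged diet -0.0026. Without both libraries, averaged diet was 0.19 for Hadhb and -0.03 for Ehhadh, genotype on HFD was 0.0025 for Acadl, -0.17 for Acadvl and 0.49 for Ehhadh, genotype averaged over diets was 0.06 for Ehhadh, and the interaction was 0.25 for Cpt1a.

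With 1 mouse left out, 23 of 63 member differences changed sign at least once. For diet in control mice the log2 values ran from -0.88 to 0.15 for Cpt2, from -0.59 to 0.38 for Ehhadh and from -0.23 to 0.02 for Hadha. For diet in ASKO mice they ran from -0.03 to 0.21 for Acadm, from -0.21 to 0.40 for Ehhadh and from -0.11 to 0.71 for Hadhb. For averaged diet they ran from -0.27 to 0.24 for Cpt2, from -0.22 to 0.27 for Ehhadh and from -0.33 to 0.08 for Hadhb. For genotype on chow they ran from -0.27 to 0.06 for Acadl, from -0.15 to 0.44 for Cpt1a, from -0.22 to 0.10 for Cpt2, from -0.39 to 0.02 for Hadha and from -0.66 to 0.06 for Hadhb. For genotype on HFD they ran from -0.16 to 0.03 for Acadl, from -0.12 to 0.39 for Acadvl, from -0.0036 to 0.40 for Cpt1a and from -0.60 to 0.24 for Ehhadh. For genotype averaged over diets Hadhb ran from -0.04 to 0.37. For the interaction they ran from -0.12 to 0.20 for Acadl, from -0.50 to 0.01 for Acadvl, from -0.29 to 0.31 for Cpt1a and from -0.23 to 0.74 for Ehhadh. Depth limits Hadhb, Cpt2 and Ehhadh most, at an estimated 10 fragments or fewer in every mouse.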
